A study of Mus musculus with 3 samples.

Results

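The miR-15 and miR-16 family is a group of microRNAs (miRNAs) that share the seed AGCAGCA at bases 2 to 8. Its levels were compared in mouse serum between 3 RNA extraction kits. The 6 members, miR-15a-5p, miR-15b-5p, miR-16-5p, miR-195a-5p, miR-322-5p and miR-497a-5p, were taken by name from the 1881 mouse miRNAs on the array, and 12 of its 4415 probes belonged to them. Serum came from 8-week-old male C57BL/6NJcl mice, and 200 µL of it went into each extraction. The first kit was the miRNeasy serum/plasma advanced kit and the second the mirVana PARIS kit for RNA and native protein. For the third, 700 µL of QIAzol Lysis Reagent was added to the serum and the aqueous layer was passed through the exoRNeasy midi kit, an arm meant to give the total RNA of the serum. These are called miRNeasy advanced, mirVana PARIS and exoRNeasy here. No mouse was treated or genetically altered per the labels, which do not say how many mice were bled or whether the 3 extractions shared a serum pool.

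Each extract gave 1 array, made from 1.8 ng of RNA labelled with Cy3, so no test of significance was possible and no value has a replicate error. Errors given here, called spot errors, come from the scatter of the replicate spots of a probe, mostly 15 per array, and cover the array step only, not the extraction or the mice. Kit and extract cannot be told apart. On the exoRNeasy, miRNeasy advanced and mirVana PARIS arrays 83, 71 and 134 miRNAs were detected, 67 of them on all 3 arrays. Detection meant that over 0.5 of the spots of at least 1 of the miRNA's probes were flagged well above background.

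MiRNAs guide Argonaute proteins to messenger RNAs, and the seed at the 5′ end does most of the pairing, so that miRNAs with one seed share many predicted targets. The miR-15 and miR-16 family is known for restraining the cell cycle through cyclins and cyclin-dependent kinases and for targeting the survival factor BCL2. In blood, miR-16-5p is abundant in red cells and is often used as a reference for circulating miRNAs, while miR-195a-5p and miR-497a-5p are better known from muscle and other solid tissues.

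The 6 mature sequences are printed with the seed in capitals because the members can be told apart only by the bases outside it. All 6 were found in RefSeq (GRCm38.p6).

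mmu-miR-16-5p: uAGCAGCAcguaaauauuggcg
mmu-miR-195a-5p: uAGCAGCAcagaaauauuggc
mmu-miR-15a-5p: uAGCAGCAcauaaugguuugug
mmu-miR-15b-5p: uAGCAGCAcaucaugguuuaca
mmu-miR-497a-5p: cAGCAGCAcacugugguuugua
mmu-miR-322-5p: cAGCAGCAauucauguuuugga

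Positions are counted from 1 at the 5′ end, and the base of the first miRNA named is written first. MiR-16-5p and miR-195a-5p were the closest pair, with 19 of 21 compared positions the same, the substitutions G10A and U11G, and the shared run AAAUAUUGGC after the seed. MiR-15a-5p and miR-15b-5p had 18 of 22 positions the same, with A12C, G20A, U21C and G22A. MiR-15a-5p and miR-497a-5p shared 17 of 22. MiR-195a-5p and miR-497a-5p, which lie in one cluster, had only 12 of 21 in common. The seed occurred in 10 of 1679 mature mouse miRNA names (0.596%) in RefSeq, the 6 members among them.

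By RefSeq's coordinates the members lie in 4 clusters. The miR-15a-5p arm at chr14:61632075-61632096 and a copy of miR-16-5p at chr14:61631936-61631957, both on the minus strand, are 117 bases apart within the long non-coding RNA gene Dleu2. The miR-15b-5p arm at chr3:69009775-69009796 and the other copy of miR-16-5p at chr3:69009918-69009939, both on the plus strand, are 121 bases apart within Smc4, which encodes a condensin subunit. The mature miR-16-5p from both copies is the same, so the array cannot say which locus it came from. MiR-497a-5p (chr11:70234730-70234751) and miR-195a-5p (chr11:70235062-70235082) are 310 bases apart on the plus strand. MiR-322-5p (chrX:53054306-53054327, minus strand) is 256 bases from miR-503-5p within the non-coding gene C430049B03Rik.

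MiR-15a-5p, miR-15b-5p, miR-16-5p, miR-195a-5p and miR-497a-5p were detected with every kit and miR-322-5p with mirVana PARIS only, and the 5 measured with every kit did not shift as a block. MiR-16-5p had a lower ratio to mirVana PARIS than every other detected member with both other kits, by 0.29 to 0.77 log2 units for exoRNeasy and by 0.46 to 0.94 log2 units for miRNeasy advanced. MiR-15a-5p and miR-15b-5p lay between, and the cluster mates miR-195a-5p and miR-497a-5p had the highest ratios. Between exoRNeasy and miRNeasy advanced the members lay within 0.28 log2 units of each other by the probe used for each. The other probe of miR-15b-5p, also detected, gave a log2 ratio of 0.78 there. After the scaling used, 0 of 5 members passed 2-fold and 3 spot errors in any comparison. Of all miRNAs, 2.99% to 25% passed as higher and 1.49% to 2.82% as lower, depending on the comparison. Without scaling, 5 of 5 members passed as lower in miRNeasy advanced against mirVana PARIS, where 80.3% of all miRNAs did.

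MiR-16-5p, the member shared by 2 of the clusters, gave signals of 431 scanner units (exoRNeasy), 218 (miRNeasy advanced) and 1261 (mirVana PARIS). These are background-subtracted spot intensities before any scaling between arrays, each over 15 spots. MiR-15b-5p gave 239, 117 and 494 in the same order, and miR-15a-5p gave 116, 67.4 and 279. For these 3 miRNAs the mirVana PARIS array was the brightest and the miRNeasy advanced array the dimmest, and every spot was well above background.

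MiR-497a-5p gave 26.0, 15.5 and 48.3 scanner units on the exoRNeasy, miRNeasy advanced and mirVana PARIS arrays, with 86.7%, 93.3% and 100% of its spots well above background. MiR-195a-5p gave 24.8, 14.1 and 42.6, with 73.3%, 73.3% and 100% of its spots well above background. Both had the same order of kits as miR-16-5p, but the spots of miR-195a-5p on the exoRNeasy and miRNeasy advanced arrays overlapped. Both were near the limit of detection, at 4.93, 3.17 and 9.86 times the mean negative-control signal for miR-497a-5p and 4.71, 2.89 and 8.69 times for miR-195a-5p, against 81.8, 44.6 and 257 times for miR-16-5p. When detection of all its probes was demanded of a miRNA, only miR-15a-5p, miR-15b-5p and miR-16-5p were detected on the exoRNeasy and miRNeasy advanced arrays. On the mirVana PARIS array every member but miR-497a-5p was. The share of all miRNAs that pass this rule was not counted.

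MiR-322-5p, the mouse counterpart of miR-424 and the member encoded on the X chromosome, gave 10.1, 8.96 and 20.5 scanner units. It was well above background in 0% and 13.3% of spots on the exoRNeasy and miRNeasy advanced arrays and in 100% on the mirVana PARIS array, so that it counted as detected with mirVana PARIS only. Under the looser flag for positive and significant signal it was detected on all 3 arrays, as were the other members. The share of all miRNAs that pass this flag was not counted. Set against the lowest detected signal of the dimmer arrays, 21.6 and 12.2, its unscaled mirVana PARIS signal was at least 1.68-fold higher than with miRNeasy advanced, and no bound above 1 could be given against exoRNeasy or against either kit after scaling.

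**Figure D1:**
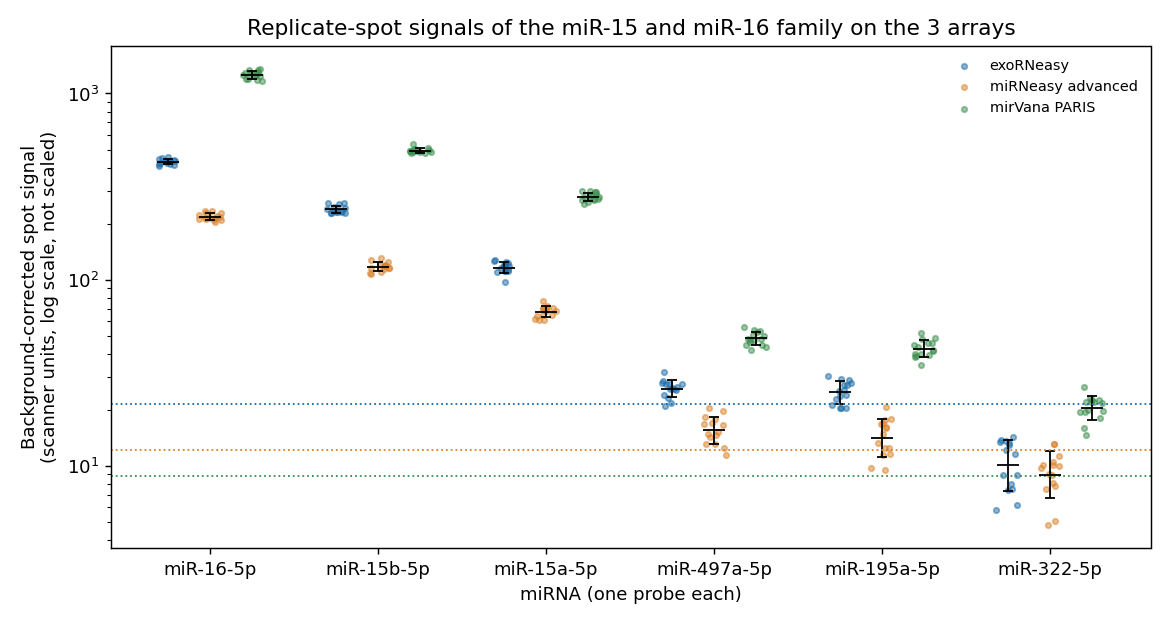
Spot signals of the 6 members in scanner units on a log axis, before scaling, for the probe used for each miRNA; points are replicate spots, black bars the mean ± SD over spots on the log2 scale, and dotted lines the lowest signal of a detected probe on each array (21.6, 12.2 and 8.81). The mirVana PARIS spots are highest for all 6, and the mean of miR-322-5p lies under the dotted line of its array with exoRNeasy (10.1) and miRNeasy advanced (8.96); heights of different miRNAs come from different probes and are not comparable.

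All arrays received the same mass of labelled RNA, and the 106 probes shared by all 3 detection lists had a 75th percentile of log2 signal of 7.05 with exoRNeasy, 6.21 with miRNeasy advanced and 8.02 with mirVana PARIS. This percentile was subtracted from each array, and the ratios that follow are log2 differences of these scaled levels. A difference was called when it was at least 2-fold and over 3 spot errors.

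In exoRNeasy against mirVana PARIS, 0 of 5 members detected on both arrays were called, where 25% of the 80 miRNAs detected on both were called higher and 2.5% lower. MiR-16-5p had a scaled log2 level of 1.70 with exoRNeasy and 2.28 with mirVana PARIS, a log2 ratio of −0.58 ± 0.02, and 3 of the 80 miRNAs had a lower ratio. MiR-15a-5p had −0.29 ± 0.03 and miR-15b-5p −0.08 ± 0.02. These 3 ratios were below 0 by over 3 spot errors. MiR-497a-5p had 0.07 ± 0.05 and miR-195a-5p 0.19 ± 0.07, both within 3 spot errors of 0. The median ratio of the members was −0.08 and that of all 80 miRNAs was 0.33, and 5 of 5 members lay below the latter.

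In miRNeasy advanced against mirVana PARIS, 0 of 5 members were called, where 14.1% of 71 miRNAs were called higher and 2.82% lower. MiR-16-5p had a scaled log2 level of 1.56 with miRNeasy advanced, a log2 ratio of −0.73 ± 0.02, and 5 of the 71 miRNAs had a lower ratio. MiR-15a-5p had −0.25 ± 0.03 and miR-15b-5p −0.27 ± 0.02, which did not differ from each other beyond their spot error. MiR-497a-5p had 0.16 ± 0.07 and miR-195a-5p 0.21 ± 0.10, again within 3 spot errors of 0. The median of the members was −0.25 against 0.18 for all 71 miRNAs, and 4 of 5 members lay below it, miR-195a-5p above. This comparison and the previous one share the mirVana PARIS array, so the repeat of the order is not independent.

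In exoRNeasy against miRNeasy advanced, 0 of 5 members were called, where 2.99% of 67 miRNAs were called higher and 1.49% lower. The log2 ratio was 0.15 ± 0.02 for miR-16-5p and 0.19 ± 0.03 for miR-15b-5p, both over 3 spot errors above 0. MiR-15a-5p had −0.05 ± 0.04, miR-195a-5p −0.02 ± 0.10 and miR-497a-5p −0.09 ± 0.08, all within 3 spot errors of 0. The median of the members was −0.02 against 0.12 for all 67 miRNAs, with 3 of 5 members below. Averaging all probes of each miRNA widened the distance between the highest and the lowest member here from 0.28 to 1.23, with the undetected second probe of miR-497a-5p included. The second probe of miR-15b-5p, detected on all 3 arrays, gave 0.78 ± 0.05, and the averaged ratio of miR-15b-5p was 0.48.

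**Figure D2:**
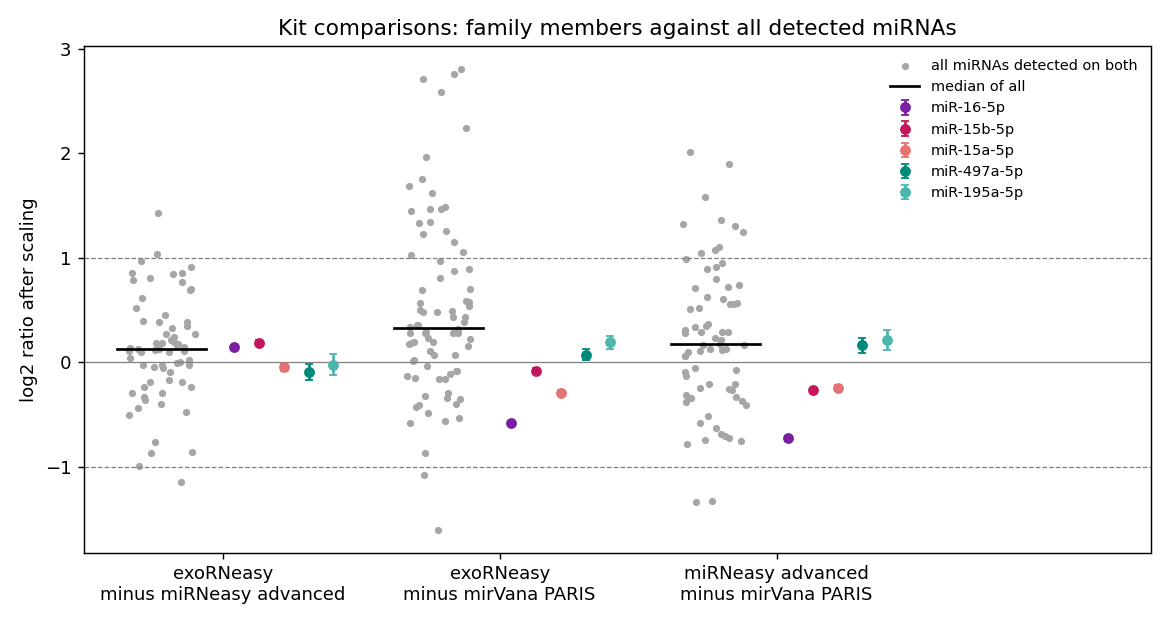
Log2 ratio after scaling in the 3 kit comparisons, for every miRNA detected on both arrays (grey points, black bar their median) and for the 5 measured members (coloured points, bars ± the spot error); dashed lines mark 2-fold. MiR-16-5p is the lowest member in both comparisons with mirVana PARIS, at −0.58 and −0.73, while the members lie between −0.09 and 0.19 in exoRNeasy against miRNeasy advanced.

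The sign of some of these ratios depends on the scaling. Without any, all 5 members were brighter with mirVana PARIS than with exoRNeasy, and brighter with exoRNeasy than with miRNeasy advanced. Against mirVana PARIS, only miR-195a-5p and miR-497a-5p thus turned sign. In exoRNeasy against miRNeasy advanced these and miR-15a-5p did. MiR-16-5p kept its sign, with an unscaled log2 difference of −1.55 for exoRNeasy and −2.53 for miRNeasy advanced against mirVana PARIS. For exoRNeasy against miRNeasy advanced it was 0.98, but other scalings did not keep that sign. With the median over shared probes, the ratio there was −0.13 for miR-16-5p and −0.09 for miR-15b-5p. With quantile normalization it was 0 for miR-16-5p and 0.07 for miR-15b-5p. Unscaled, 3, 5 and 1 of 5 members were called in these comparisons, where 27.5%, 80.3% and 0% of all miRNAs were called lower and 6.25%, 0% and 43.3% higher. The members called were lower in the comparisons with mirVana PARIS and higher in exoRNeasy against miRNeasy advanced.

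A difference between the ratios of 2 members does not depend on a scaling factor common to the array, and it sets no probe's level against another's. Over the 10 pairs of measured members, 8 differed by over 3 spot errors in exoRNeasy against mirVana PARIS, 8 in miRNeasy advanced against mirVana PARIS and 4 in exoRNeasy against miRNeasy advanced. The share among all pairs of detected miRNAs was not counted, so these counts do not set the family apart from other miRNAs. The widest gap was between miR-195a-5p and miR-16-5p, at 0.77 ± 0.07 and 0.94 ± 0.10 in the comparisons with mirVana PARIS. These are the members closest in sequence, differing at positions 10 and 11 of the alignment printed above. In exoRNeasy against miRNeasy advanced the same difference was −0.17 ± 0.10, within 3 spot errors.

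Among members made from one precursor cluster, miR-195a-5p and miR-497a-5p did not differ by over 3 spot errors. MiR-195a-5p minus miR-497a-5p was 0.07 ± 0.13 for exoRNeasy against miRNeasy advanced, 0.12 ± 0.08 for exoRNeasy against mirVana PARIS and 0.05 ± 0.12 for miRNeasy advanced against mirVana PARIS, so that differences of up to 3 times these errors could not be seen. In the main processing each of the pair rests on a single dim probe. With all probes of a miRNA averaged, undetected ones included, the difference was 0.60, 0.38 and −0.22 in the same order. The mature sequences of miR-195a-5p and miR-497a-5p are among the least alike of the family.

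The clusters that hold miR-16-5p had smaller spot errors, so smaller gaps could pass 3 of them there. MiR-15b-5p minus miR-16-5p was 0.04 ± 0.03 for exoRNeasy against miRNeasy advanced, but 0.50 ± 0.03 and 0.46 ± 0.03 for exoRNeasy and miRNeasy advanced against mirVana PARIS. MiR-15a-5p minus miR-16-5p was −0.20 ± 0.04, 0.29 ± 0.04 and 0.48 ± 0.04 in the same order. In both clusters the miR-15 arm thus had the higher ratio of the pair in the comparisons with mirVana PARIS, by over 3 spot errors.

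The gap between miR-16-5p and the dim members changed in size with the treatment of background. With the mean negative-control signal subtracted from every spot, an alternative chosen after seeing the data, miR-195a-5p minus miR-16-5p was 0.61 for exoRNeasy and 0.50 for miRNeasy advanced against mirVana PARIS. The ratio of miR-195a-5p itself in miRNeasy advanced against mirVana PARIS was then −0.18 and that of miR-497a-5p −0.17, so that their sign turned. With normexp background correction the difference between miR-195a-5p and miR-16-5p was 1.20 and 1.77. MiR-16-5p had the lowest ratio of the 5 members in 15 of 15 processing settings for miRNeasy advanced against mirVana PARIS and in 14 of 15 for exoRNeasy against mirVana PARIS, where miR-497a-5p was lower by 0.003 when all probes of a miRNA were averaged. MiR-195a-5p and miR-497a-5p had the 2 highest ratios in 15 and 11 of 15 settings in these comparisons. Settings that only move a whole array could not change this order and repeat the main result among the 15. They are no scaling, the percentile over all probes, the median over shared probes, the labelling spike-in and scaling to miR-16-5p. The floor of 5 also repeated the main values for these members. Normexp added an offset of 50, and uncorrected pixel medians keep the background. Both shrink the unscaled ratios of dim members by construction, which widens their gap to miR-16-5p. These settings are thus no independent check of the order.

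**Figure D3:**
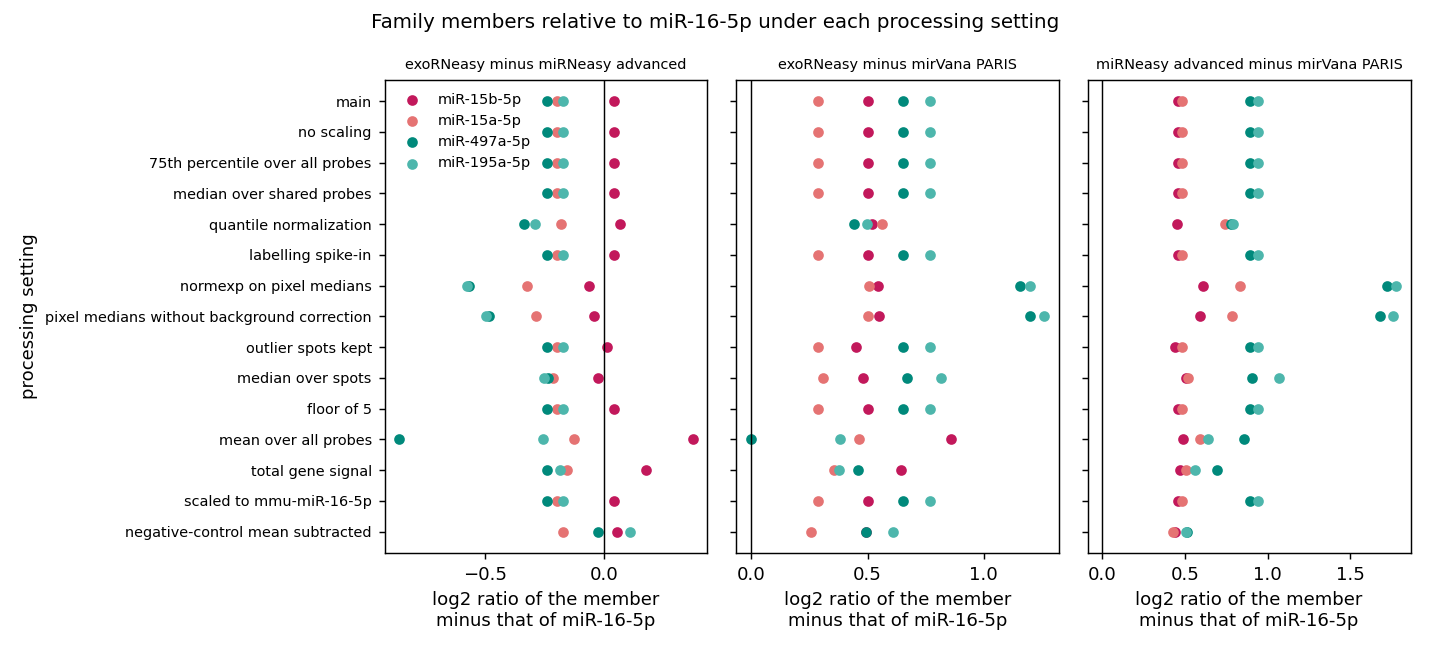
Log2 ratio of miR-15b-5p, miR-15a-5p, miR-497a-5p and miR-195a-5p minus that of miR-16-5p (horizontal axis) under each processing setting (vertical axis), in the 3 kit comparisons. In miRNeasy advanced against mirVana PARIS all points lie to the right of 0, from 0.43 to 1.77, and in exoRNeasy against miRNeasy advanced most lie to the left.

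Each member had 2 probes, of which one was dimmer than the other on every array. For miR-16-5p the dimmer probe gave 78.7, 41.9 and 290.0 scanner units on the exoRNeasy, miRNeasy advanced and mirVana PARIS arrays, and log2 ratios of −0.91 ± 0.04 and −0.99 ± 0.04 for exoRNeasy and miRNeasy advanced against mirVana PARIS. Both probes of miR-16-5p thus lay below 0, the dimmer one further. The other probe of miR-15a-5p gave −0.27 ± 0.03 and −0.29 ± 0.03, close to the −0.29 and −0.25 of the probe used. The probes of miR-15b-5p disagreed. The dimmer one, at 77.8, 25.4 and 123 scanner units, gave 0.31 ± 0.03 for exoRNeasy against mirVana PARIS, where the probe used gave −0.08 ± 0.02, and 0.78 ± 0.05 for exoRNeasy against miRNeasy advanced, where the probe used gave 0.19 ± 0.03. The second probes of miR-195a-5p and miR-497a-5p were not detected on the exoRNeasy and miRNeasy advanced arrays, so those members rest on a single probe.

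The partners of these miRNAs were not detected. Most precursor hairpins can yield a 5p and a 3p arm, of which one is usually kept, and a cluster transcript carries several hairpins. The list of partners held the 3p arms of the members, miR-195b and miR-497b, and the miR-503, miR-351, miR-542 and miR-450 arms that follow miR-322 on the X chromosome. All 20 were on the array and 0 of 20 were detected on any of the 3 arrays, with 0 of 579, 579 and 562 spots well above background. Of all 1881 miRNAs 4.41%, 3.77% and 7.12% were detected on the exoRNeasy, miRNeasy advanced and mirVana PARIS arrays, so that a count of 0 among 20 is near the share on the whole array. The brightest was miR-351-5p at 9.0 scanner units with exoRNeasy, followed by miR-15a-3p at 6.28 on that array, and no partner exceeded 2.08 with miRNeasy advanced or 3.10 with mirVana PARIS. The lowest detected signals there were 21.6, 12.2 and 8.81, so that lower levels could not be seen. Under the looser flag, miR-15a-3p and miR-351-5p were detected with exoRNeasy, miR-16-2-3p with miRNeasy advanced, and miR-15a-3p, miR-16-2-3p and miR-450b-5p with mirVana PARIS. No share of all miRNAs was counted under that flag to set beside these. By RefSeq miR-195b lies on chromosome 2 and is thus no neighbour of miR-195a.

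The other miRNAs with the seed, miR-195b, miR-6342, miR-6353 and miR-6419, were not detected either (0 of 4 on each array, at most 1.63 scanner units). Under the detection rule used, the seed was thus detected in miR-15a-5p, miR-15b-5p, miR-16-5p, miR-195a-5p and miR-497a-5p on all arrays and in miR-322-5p with mirVana PARIS, and under the looser flag in all 6 members on each array.

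**Figure D4:**
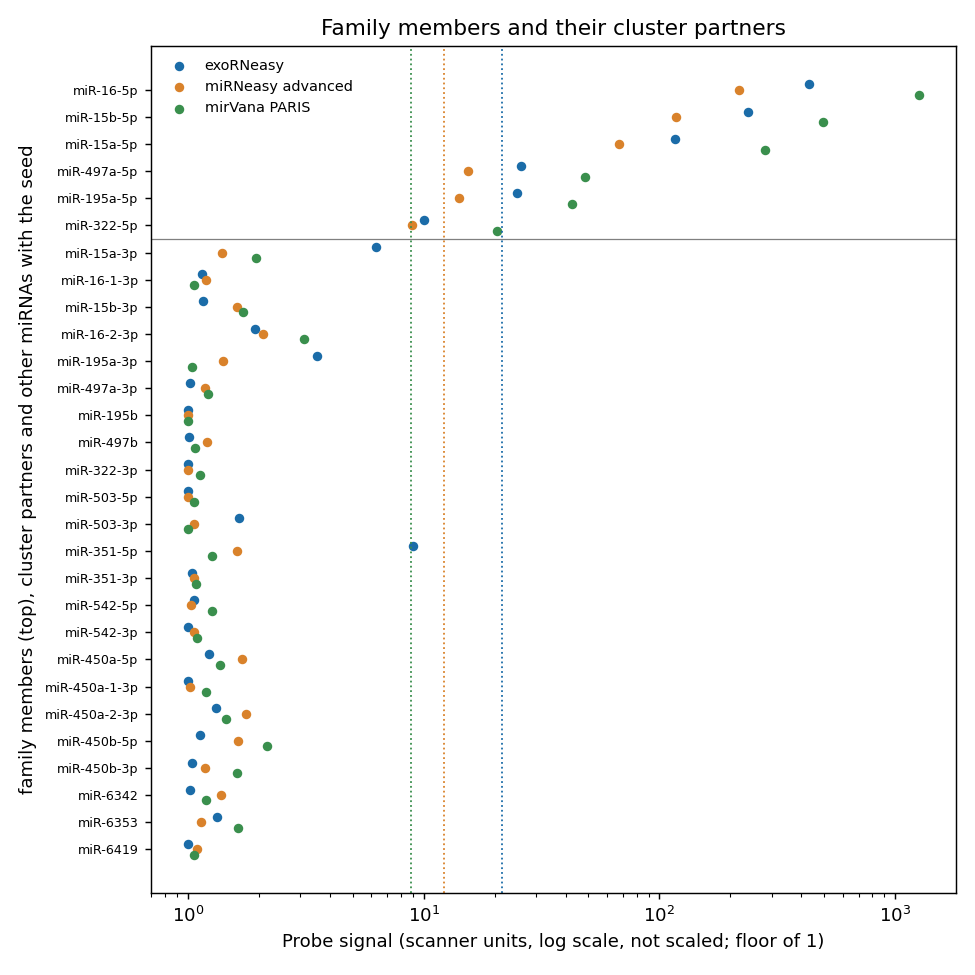
Probe signal in scanner units (log axis, unscaled, raised to at least 1) of the 6 members, the 20 partner arms and the other miRNAs with the seed on each array, with the brightest probe shown for non-members; dotted lines mark the lowest signal of a detected probe on each array. All non-members lie to the left of the dotted line of their array, the nearest being miR-351-5p at 9.0 with exoRNeasy against 21.6.

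Over the 3 scaled levels, each miRNA centred on its own mean, the 5 miRNAs nearest to miR-16-5p of the other 66 detected on all arrays were miR-93-5p (distance 0.13), miR-486a-5p (0.17), miR-20b-5p (0.18), miR-1a-3p (0.23) and miR-106b-5p (0.25). Of these, miR-93-5p, miR-20b-5p and miR-106b-5p belong to the miR-17 family, miR-486a-5p is abundant in red cells, and miR-1a-3p is a miRNA of heart and skeletal muscle. The other members came at place 8 (miR-15a-5p), 11 (miR-15b-5p), 26 (miR-497a-5p) and 31 (miR-195a-5p). The list rests on 3 points per miRNA and is a description only.

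Red cell markers were detected in the same serum. Of 7 red cell miRNAs 5 were detected on all 3 arrays, and their summed scaled level was 5.65, 6.12 and 6.19 on the log2 scale for exoRNeasy, miRNeasy advanced and mirVana PARIS. MiR-451a, which is made without Dicer in red cell precursors, had log2 ratios of −0.56 ± 0.02 for exoRNeasy and −0.06 ± 0.03 for miRNeasy advanced against mirVana PARIS, where miR-16-5p had −0.58 and −0.73. MiR-486a-5p had −0.34 ± 0.03 and −0.58 ± 0.04, and miR-144-3p, from the locus of miR-451a, had −1.60 ± 0.04 and −0.74 ± 0.04. Other red cell markers were not all below 0: miR-92a-3p had 0.50 ± 0.04 and 0.11 ± 0.04, and miR-25-3p 0.01 ± 0.03 and −0.33 ± 0.05. MiR-23a-3p, often set against miR-451a as a measure of haemolysis, had 0.28 ± 0.02 and 0.18 ± 0.03, and miR-223-3p of platelets and myeloid cells had 0.57 ± 0.03 and 0.29 ± 0.03. From the same list of platelet and myeloid markers, miR-126a-3p had 0.87 ± 0.04 and 0.89 ± 0.04, and miR-142a-3p −0.40 ± 0.06 and 0.74 ± 0.04. The 2 heart and skeletal muscle markers were detected on all 3 arrays, with a summed scaled level of 0.73 (exoRNeasy), 0.54 (miRNeasy advanced) and 1.16 (mirVana PARIS). The scaled level of miR-16-5p was 1.70 (exoRNeasy), 1.56 (miRNeasy advanced) and 2.28 (mirVana PARIS). Single markers of a list differed in their order of kits. In the same order of arrays, the red cell miRNA miR-486a-5p had −0.99, −1.23 and −0.65, and the muscle miRNA miR-1a-3p 0.246, 0.247 and 0.652. Against mirVana PARIS, exoRNeasy and miRNeasy advanced gave −0.41 ± 0.04 and −0.40 ± 0.04 for miR-1a-3p and −0.49 ± 0.03 and −1.33 ± 0.05 for miR-133a-3p. The part of red cell or muscle miRNAs in the ratios of miR-16-5p was not tested. The 3 platelet and myeloid markers, with summed levels of 2.71, 2.62 and 2.18, and the liver marker miR-122-5p, at −0.12, −1.10 and −0.31, were also detected on all 3 arrays. Of the reference miRNAs miR-191-5p was detected on none and miR-103-3p with mirVana PARIS only.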

How the data were processed

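Serum RNA from 3 kits, 1 array each, was measured on 1-colour Agilent mouse miRNA arrays that shared a slide and a scan, per the file headers. The deposited intensity of each spot is linear and background-subtracted. Per the file headers it was made with version 11.5.1.1 of Agilent Feature Extraction (11.5 in the submitters' processing notes), and they record no normalisation between arrays. Each number of the deposited value table lay within 0.497% of the scanner intensity, so the table is linear and not centred. Its column medians were −2.77 (exoRNeasy), −1.51 (miRNeasy advanced) and −1.44 (mirVana PARIS).

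From these, control spots and spots flagged as outliers (1515, 1474 and 1427 in that order) were left out, signals were raised to at least 1, and log2 values were averaged per probe. The 75th percentile over shared detected probes was subtracted. Where a miRNA had several probes, the one with most detections was used, and the brighter of equals. No spot was saturated. The spot error of a ratio is the root of the summed squared standard errors of its 2 probe means. The number of arrays limits the precision. Mean spike-in signal for labelling was 10.35, 10.47 and 10.60 on the log2 scale.

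The members, lists and tests were chosen with earlier results of these data known. Named miRNAs are all members, all arrayed miRNAs with the seed, 20 listed partners, the 5 nearest to miR-16-5p and listed reference and cell type markers; the 2 brightest partners were named after their values were seen. Alternatives covered scaling, background, outliers, spot summary, floor, probe choice and detection. The files hold pixel medians, so normexp (offset 50) used those and the local background medians. Python 3.11.15, pandas 2.3.3, numpy 2.4.6, R 4.3.3 and limma 3.58.1 were used. Sequences and coordinates are RefSeq's (GRCm38.p6).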

Additional observations from a re-analysis of the deposited data

How the results depend on the processing

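Which miRNAs passed 2-fold depended on the scaling. In exoRNeasy against miRNeasy advanced, exoRNeasy against mirVana PARIS and miRNeasy advanced against mirVana PARIS, 0 members passed after the scaling used. The counts of members were 1, 3 and 5 without scaling, 2, 2 and 5 with the labelling spike-in, and, with the percentile taken over all probes, 5 and 5 in the last 2 comparisons. These comparisons held 67, 80 and 71 miRNAs detected on both arrays. In the same order, the miRNAs at least 2-fold higher numbered 2, 20 and 10 after the scaling used, 29, 5 and 0 without scaling, 12, 4 and 0 with that percentile, and 39, 7 and 0 for the spike-in. Those at least 2-fold lower numbered 1, 2 and 2, then 0, 22 and 57, then 0, 45 and 56, then 0, 14 and 53. Scaling to miR-16-5p gave 1, 36 and 33 higher and 4, 1 and 0 lower.

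In exoRNeasy against miRNeasy advanced, 1 miRNA was higher and 5 were lower with the median over shared probes, and 1 and 4 with quantile normalization. There, 0 were higher and 0 lower with normexp and also on uncorrected pixel medians, 7 higher with the mean over all probes, 5 higher with the total gene signal, 2 lower with the median over spots, and 7 higher and 2 lower with the negative-control mean subtracted. In exoRNeasy against mirVana PARIS, 12 were higher with quantile normalization and 10 with normexp. In both comparisons with mirVana PARIS, 0 were lower with normexp and on uncorrected pixel medians, and 5 with the mean over all probes.

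The highest minus the lowest ratio among members, 0.28, 0.77 and 0.94, was 1.23 in the first comparison with the mean over all probes. In the others it was 1.20 and 1.77 with normexp and 1.26 and 1.76 on uncorrected pixel medians, and in the last 0.51 with the negative-control mean subtracted. With the flag for positive and significant signal 2, 1 and 3 partner arms were detected on the exoRNeasy, miRNeasy advanced and mirVana PARIS arrays, with the share of all miRNAs not counted. On the exoRNeasy array 3 members in place of 5 were detected when every probe or over 0.9 of spots was required, and on the miRNeasy advanced array 3 when every probe was. With over 0.9 of spots the miRNeasy advanced array kept 4. The mirVana PARIS array kept 5 with every probe required and 6 with over 0.9 of spots. The share of all miRNAs under these stricter rules was not counted. Of the 5 miRNAs nearest to miR-16-5p, 2 remained with normexp, 2 on uncorrected pixel medians and 3 with the mean over all probes. The causes were not tested beyond what each setting does by construction. Keeping outlier spots, a floor of 5 and the median over spots left each of the 15 member ratios within 1 spot SD. The value table gave the same levels within the spot SD. No paired analysis was possible because each kit had 1 array. Signal over background limits miR-195a-5p, miR-497a-5p and miR-322-5p.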

Other observations

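MiR-16-5p is a common reference for serum miRNAs, and with these arrays it moved the counts of all miRNAs. When each array was scaled to its miR-16-5p level, an alternative chosen after seeing the data, 36 of 80 miRNAs were at least 2-fold higher with exoRNeasy than with mirVana PARIS and 1 was lower, against 20 and 2 after scaling to the 75th percentile. In miRNeasy advanced against mirVana PARIS the counts were 33 higher and 0 lower of 71, against 10 and 2. In exoRNeasy against miRNeasy advanced they were 1 higher and 4 lower of 67, against 2 and 1. No significance attaches to these counts, with 1 array per kit.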
